A study of Mus musculus with 7 samples.

Results

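Transcripts of 10 genes that mark endothelial cells, the cells that line blood vessels, were followed array by array in sorted satellite cells, the stem cells of skeletal muscle. The genes were Cdh5, Pecam1, Kdr, Flt1, Tek, Tie1, Emcn, Cldn5, Esam and Eng, chosen as a check on vascular RNA carried through the sort. Each of the 10 had 1 probe set annotated to that gene alone, among 13287 genes named in the table, and all 10 passed the filter on mean level that left 9944 genes for testing.

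Capillaries run along muscle fibres, and satellite cells often lie close to them, so that enzymatic digestion of a muscle frees both kinds of cell together. Endothelial cells hold to each other through VE-cadherin and tight junction proteins, and grow and mature under vascular endothelial growth factor (VEGF) and angiopoietin, whose receptors are largely restricted to the vessel wall. Few of these genes are wholly exclusive to it. Tek, for instance, has been described in satellite cells, Eng in mesenchymal cells, and Pecam1 in platelets and leukocytes.

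Satellite cells had been hybridised on 3 arrays from mice dead for 4 days (D4PM), on 2 arrays from mice dead for 2 days (D2PM) and on 2 arrays from living mice, called old. All came from TgPax7nGFP mice, in which the promoter of Pax7 drives a nuclear GFP, and cells were sorted on size, granularity and GFP from digested limb muscles, straight into lysis buffer. An antibody against CD31, the product of Pecam1, is named in the methods only for the analysis of other cell populations. The array labels and the text of the study give the old animals an age of 24 to 26 months, whereas the series title speaks of young adults and the design text gives the same figures in weeks. The study describes the post-mortem mice as weeks old, so that death and age cannot be told apart in any comparison with old cells. No label or method states whether the arrays of 1 group were made from different mice, and the p-values below therefore describe how far the arrays themselves scatter, which may be technical. Levels are log2 values made by robust multi-array average (RMA), in which 1 unit is a doubling, and array medians lay between 6.11 and 6.19. RMA gives no detection call and compresses changes of dim probe sets, and levels of different genes are not compared here.

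Promoters are shown for 3 of the genes because ETS-family factors, which bind around the letters GGAA, are the textbook regulators of endothelial genes. Of the 10 genes 7 had a window in RefSeq (build GRCm38.p6), and for Tie1, Eng and Cldn5 the 250 bases before the start lay wholly outside the annotated gene. Capitals mark GGAA on either strand (TTCC where it lies on the other strand). The windows are chr4:118489850-118490099 on the minus strand for Tie1, chr2:32646345-32646594 on the plus strand for Eng and chr16:18776597-18776846 on the plus strand for Cldn5, each 5′ to 3′.
Tie1: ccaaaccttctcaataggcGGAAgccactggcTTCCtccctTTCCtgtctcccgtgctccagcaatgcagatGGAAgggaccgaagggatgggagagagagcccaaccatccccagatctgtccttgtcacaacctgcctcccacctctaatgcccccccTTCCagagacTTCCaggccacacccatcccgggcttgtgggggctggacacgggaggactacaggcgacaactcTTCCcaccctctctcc
Eng: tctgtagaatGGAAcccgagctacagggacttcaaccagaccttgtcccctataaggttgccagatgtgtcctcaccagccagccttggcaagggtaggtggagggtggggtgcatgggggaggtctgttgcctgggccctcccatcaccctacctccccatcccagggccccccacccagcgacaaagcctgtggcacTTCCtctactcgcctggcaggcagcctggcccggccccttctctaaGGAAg
Cldn5: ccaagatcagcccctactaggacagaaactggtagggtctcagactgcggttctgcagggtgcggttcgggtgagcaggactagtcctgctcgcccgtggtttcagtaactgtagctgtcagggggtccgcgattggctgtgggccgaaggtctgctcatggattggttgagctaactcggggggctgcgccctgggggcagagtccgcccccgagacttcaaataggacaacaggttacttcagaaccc

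The Tie1 window held 7 matches, and 3.82% of the 32851 promoter windows of the same length held as many or more. The Eng window held 3, and 54.7% of windows held as many or more, and the Cldn5 window held none. Among the windows not shown, those of Emcn, Flt1 and Kdr held 4 each, and 33.4% of windows held as many or more. That of Tek held 2, and 76.8% held as many or more. At least 1 match lay in 6 of the 7 windows and in 93.4% of all windows. The longer run CAGGAAG, which contains GGAA, lay in 1 of the 7 windows, that of Emcn, and in 10.8% of all windows. GATAA, the letters of GATA factors, lay in none of the 7 and in 22.6% of all. A match is a description of the letters and not of binding.

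Among the junction genes, Cdh5 and Pecam1 were higher post mortem than in old cells on every array. Cdh5 (chromosome 8, 104101613 to 104144504, GRCm38.p6), which encodes VE-cadherin, the adhesion molecule of endothelial adherens junctions, stood at 9.02, 8.83 and 8.46 at D4PM, at 8.52 and 8.57 at D2PM and at 7.53 and 6.25 in old cells. Even the lowest post-mortem array lay 0.94 log2 units above the higher old array. The log2 change was 1.88 ± 0.29 for D4PM against old cells (standard error, limma adjusted p = 0.000965) and 1.66 ± 0.32 for D2PM against old cells (limma adjusted p = 0.00549). Pecam1, the gene of CD31 (chromosome 11, 106654213 to 106715281), had levels of 7.98, 7.96 and 7.10 at D4PM, 7.29 and 7.20 at D2PM and 6.62 and 5.67 in old cells. Its changes were 1.54 ± 0.29 at D4PM and 1.10 ± 0.32 at D2PM (limma adjusted p = 0.00282 and 0.0328), and post-mortem and old arrays did not overlap.

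The tight junction genes moved less. Cldn5, which encodes the claudin that seals endothelial tight junctions (chromosome 16, 18776847 to 18778262), had levels of 7.34, 7.42 and 6.95 at D4PM, 6.96 and 6.96 at D2PM and 6.95 and 6.03 in old cells. Old replicate 1 was thus level with D2PM and with D4PM replicate 3, the smallest gap being 0.0033 log2 units. Old replicate 2 alone lay below these arrays, and D4PM replicates 1 and 2 lay above them. The change passed at D4PM (0.75 ± 0.23, limma adjusted p = 0.0323) and not at D2PM (0.47 ± 0.25, limma adjusted p = 0.224). Esam, an immunoglobulin-type adhesion molecule of endothelial cells and platelets (chromosome 9, 37528089 to 37538319), had 6.01, 5.72 and 5.30 at D4PM, 5.37 and 5.43 at D2PM and 5.30 and 5.10 in old cells. Its 2 highest values were both D4PM arrays, and no change of Esam passed the test (0.47 ± 0.18 at D4PM against old cells, limma adjusted p = 0.0761).

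Both VEGF receptor genes were higher at D4PM than in old cells. Kdr, the gene of the main signalling receptor for VEGF (chromosome 5, 75932827 to 75979072), had levels of 7.23, 6.85 and 5.93 at D4PM, 6.17 and 6.40 at D2PM and 5.69 and 5.37 in old cells. The D4PM arrays spanned the D2PM values from both sides, with replicate 3 the lowest of the 5 post-mortem arrays. The change at D4PM was 1.13 ± 0.29 (limma adjusted p = 0.0140), and at D2PM it was 0.75 ± 0.32 and did not pass (limma adjusted p = 0.124). Flt1, whose product binds VEGF tightly and can hold it away from Kdr (chromosome 5, 147561604 to 147726438), had 7.60, 7.65 and 7.14 at D4PM, 7.03 and 7.14 at D2PM and 6.58 and 5.64 in old cells. Here both days passed, at 1.36 ± 0.24 and 0.98 ± 0.26 (limma adjusted p = 0.00206 and 0.0250).

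The genes of the 2 angiopoietin-system receptors changed by less than a doubling. Tek, the receptor of the angiopoietins (chromosome 4, 94739086 to 94874976), had levels of 8.56, 7.86 and 8.22 at D4PM, 7.95 and 8.16 at D2PM and 7.68 and 7.27 in old cells. It was the 1 gene of the 10 in which D4PM replicate 2, and not replicate 3, was the lowest of its group. Its change was 0.74 ± 0.20 at D4PM (limma adjusted p = 0.0171) and 0.58 ± 0.22 at D2PM (limma adjusted p = 0.0868). Tie1, a related receptor that modulates signalling by Tek (chromosome 4, 118471191 to 118489849), had 6.47, 6.64 and 6.14 at D4PM, 6.14 and 6.14 at D2PM and 5.82 and 5.67 in old cells. The change of 0.67 ± 0.15 at D4PM passed (limma adjusted p = 0.00811), and that of 0.39 ± 0.17 at D2PM did not (limma adjusted p = 0.127). Tie1 had exactly the same value on D4PM replicate 3 and both D2PM arrays, and Flt1 and Cldn5 each repeated 1 value. Such ties can arise when RMA summarises probes by medians, and 46.8% of the 18675 probe sets held at least 1, so an SD of 0 within a group is no sign of precision.

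Emcn and Eng were the extremes. Emcn, which encodes the surface sialomucin endomucin of capillaries and veins (chromosome 3, 137341062 to 137431069), had levels of 8.0, 7.55 and 7.49 at D4PM, 7.45 and 7.14 at D2PM and 6.70 and 4.90 in old cells. It had the widest range of the 10 over the 7 arrays, 3.10 log2 units, and it was the 1 gene in which all D4PM arrays lay above both D2PM arrays, as 9.69% of genes tested did. Its change was 1.88 ± 0.38 at D4PM and 1.5 ± 0.42 at D2PM (limma adjusted p = 0.00453 and 0.0298). Eng, which encodes endoglin, a co-receptor for ligands of the TGF-beta family (chromosome 2, 32646595 to 32682669), had 7.93, 7.60 and 7.18 at D4PM, 7.43 and 7.53 at D2PM and 7.34 and 7.32 in old cells. Its range was the narrowest, 0.75, and D4PM replicate 3 lay below both old arrays. No change of Eng passed (0.24 ± 0.19 at D4PM against old cells, 95% interval -0.17 to 0.65, limma adjusted p = 0.358).

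**Figure D1:**
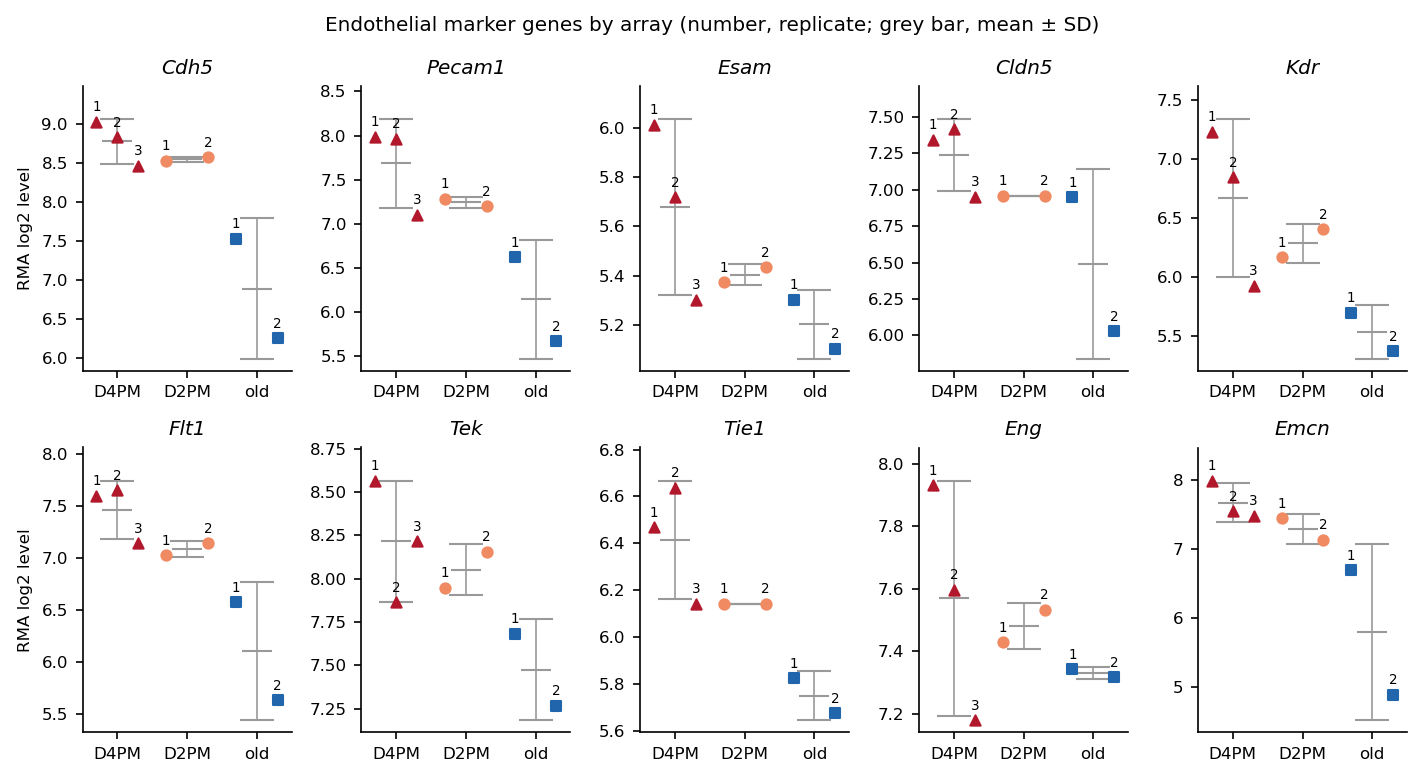
RMA log2 level (vertical axis, scaled per gene) of the 10 endothelial marker genes in D4PM (triangles), D2PM (circles) and old cells (squares), with 1 point per array, its replicate number above it, and the mean ± SD of the group as a grey bar. Old replicate 2 is the lowest array in every gene but Eng, as in Emcn at 4.90, and D4PM replicate 1 is the highest in 7 of the 10.

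Counted together, 8 of the 10 genes rose at D4PM against old cells and 4 rose at D2PM, and none fell. Among all genes tested 12.4% rose and 15.5% fell at D4PM (limma adjusted p under 0.05), together 27.9%, and 10.3% rose and 9.11% fell at D2PM, together 19.4%. Against old cells the mean of both post-mortem days was higher in 7 genes, where 14.4% of genes rose and 14.7% fell (29% in all). The 3 others, with limma adjusted p-values of 0.0522, 0.159 and 0.417, were Cldn5 at 0.61, Esam at 0.34 and Eng at 0.20. The median change of the 10 genes was 0.94 at D4PM, 0.66 at D2PM and 0.80 for the mean of both days, against medians over all genes of 0.00 in each case. All 10 changes lay above 0 in the 3 comparisons, as did 49.9%, 50.1% and 50.3% of all genes. Because these comparisons share the old arrays, they are not independent of each other. In bulk samples such as these, fewer cells of a type and less RNA per cell cannot be told apart.

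Between the days no gene of the 10 passed, either adjusted over all genes or at an unadjusted p under 0.05, while 0.191% of all genes tested were called (0.161% higher and 0.0302% lower) and 7.76% had an unadjusted p under 0.05. All 10 changes lay above 0, between 0.09 for Eng and 0.44 for Pecam1, with a median of 0.28 against -0.03 over all genes, of which 43.4% lay above 0. The interval for Pecam1 ran from -0.20 to 1.08 and that for Cdh5 from -0.41 to 0.86, so a doubling between the days was within the interval for Pecam1 and outside it for Cdh5. Without D4PM replicate 1 the change of Eng turned to -0.093 and that of Tek to -0.012.

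**Figure D2:**
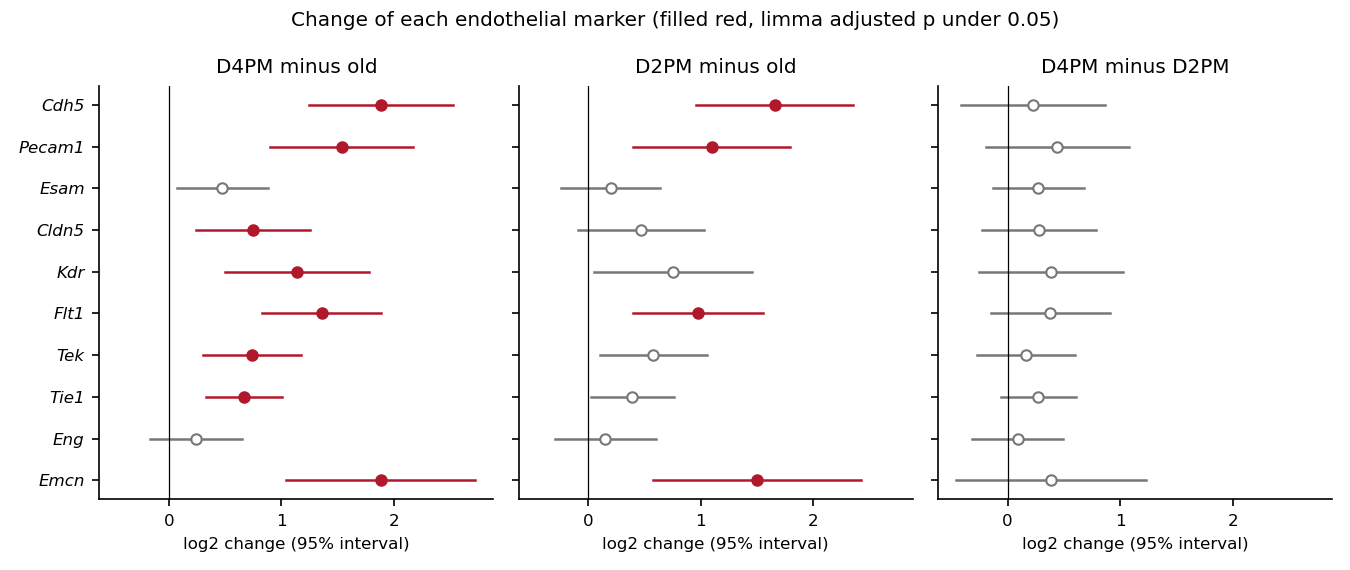
Log2 change of each gene (horizontal axis, point with 95% interval from limma) for D4PM against old, D2PM against old and D4PM against D2PM, filled red where the adjusted p is under 0.05. The 8 red points at D4PM run from 0.67 (Tie1) to 1.88 (Cdh5 and Emcn), and all 10 intervals between the days include 0.

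The 2 old arrays differed from each other in these genes. Old replicate 1 was higher than old replicate 2 in all 10, as in 45.5% of all genes tested, and by a median of 0.67 log2 units. Only 1.63% of all genes tested differed by as much in that direction. The difference was 1.81 for Emcn, 1.27 for Cdh5, 0.95 for Pecam1, 0.94 for Flt1 and 0.92 for Cldn5, and it was 0.15 for Tie1 and 0.03 for Eng. Old replicate 2 was the lowest of the 7 arrays in 9 of the 10 genes, against 23.3% of genes tested, and D4PM replicate 1 was the highest in 7, against 13.6%. The 2 D2PM arrays, by contrast, differed by a median size of 0.09 in these genes, where the median size over all genes was 0.12. The difference between the old arrays was also seen in lists of other cells, described further below. Old replicate 1 was higher in 10 of 11 macrophage and monocyte genes measured and 9 of 10 of fibroadipogenic progenitors (medians 0.51 and 0.35). It was higher in 7 of 8 tendon and Schwann cell genes, 7 of 9 fibre genes and 6 of 6 platelet and erythroid genes. The counts were 6 of 10 for pericytes and smooth muscle and 6 of 13 for satellite cells (medians 0.16 and -0.07).

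How far the 10 endothelial genes stood above living cells therefore varied with the old array used. The mean of both post-mortem days exceeded old replicate 1 by 1.13 for Cdh5, 0.84 for Pecam1, 0.79 for Emcn, 0.70 for Flt1 and 0.15 for Cldn5. Against old replicate 2 the same differences were 2.41, 1.79, 2.59, 1.64 and 1.07. Without old replicate 2, in a fit that takes the spread of the single remaining old array from the other groups, the changes shrank. The median of the 10 was 0.74 at D4PM, 0.44 at D2PM and 0.58 for the mean of both days. Fewer of the 10 were then called, as over all genes at D4PM. Without old replicate 1 the medians were 1.25, 0.92 and 1.09. At D2PM the median was 0.78 without D2PM replicate 1 and 0.55 without D2PM replicate 2, and fewer of the 10 were called in either fit. All post-mortem arrays lay above both old arrays in 9 of the 10 genes, against 22.8% of genes tested, although in Cldn5 by 0.0033 and in Esam by 0.00090. The D4PM arrays alone lay above both old arrays in 9 (26.6% of genes tested) and the D2PM arrays in all 10 (31.6%).

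**Figure D3:**
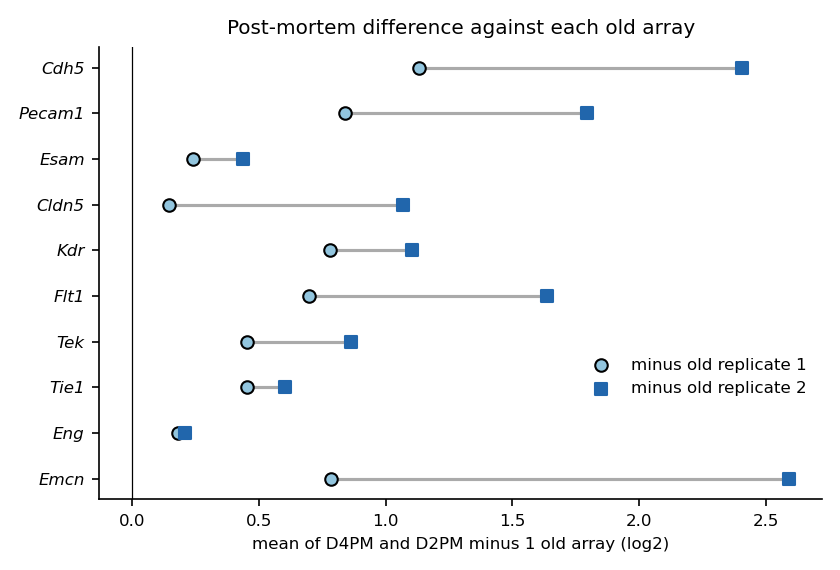
Mean of the D4PM and D2PM group means minus old replicate 1 (circles) or old replicate 2 (squares), in log2 units (horizontal axis), for each of the 10 genes. Every difference is above 0, and the line between the points is longest for Emcn (0.79 and 2.59) and shortest for Eng (0.18 and 0.21).

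Among the D4PM arrays replicate 3 stood apart in the same genes. Replicates 1 and 2 both lay above it in 9 of the 10, as in 33.3% of genes tested, by medians of 0.54 and 0.44. The difference from replicate 1 was largest for Kdr (1.30) and Pecam1 (0.88). In lists described below, both also lay above replicate 3 in 24 of 30 other endothelial genes and 11 of 14 endothelial transcription factors. The counts were 7 of 10 for fibroadipogenic progenitors and 5 of 8 for tendon and Schwann cells. They were lower for satellite cells (4 of 13) and for pericytes and smooth muscle (3 of 10). The mean level of the 10 genes was 7.62, 7.41 and 6.99 at D4PM, 7.03 and 7.07 at D2PM and 6.62 and 5.92 in old cells, so D4PM replicate 3 lay with the D2PM arrays. Without it 9 of the 10 genes rose against old cells at D4PM, Esam being the addition (0.66), and 9 for the mean of both days. Between the days none of the 10 passed with or without that array.

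Other genes of endothelial cells were counted in 4 further lists. Of 33 other endothelial markers 30 were measured and 29 tested. Against old cells 19 rose and 1 fell at D4PM, where 12.4% of all genes tested rose and 15.5% fell. At D2PM 8 rose, where 10.3% of all genes did, and between the days none passed (28 of 29 changes above 0, median 0.23). Aqp1, a water channel of capillary endothelium, had 8.97, 9.0 and 8.48 at D4PM, 8.53 and 8.48 at D2PM and 7.75 and 6.05 in old cells, a change of 1.92 at D4PM (limma adjusted p = 0.00298). Gpihbp1, which carries lipoprotein lipase to the capillary lumen, changed by 1.89 at D4PM and the apelin receptor gene Aplnr by 1.36. The exception was Cav1, the caveolin gene, which many cell types express, at -0.45 (limma adjusted p = 0.0239). Without old replicate 2 the median change of the 29 was 0.47 at D4PM and 0.27 at D2PM, against 0.66 and 0.48 with both old arrays. Fewer of them were then called at D4PM, as over all genes.

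Of 13 tested transcription factors with roles in endothelial cells 5 were higher at D4PM, where 12.4% of all genes rose, and 1 at D2PM, a share no greater than the 10.3% of all genes. Sox18, which directs arterial and lymphatic fate, stood at 7.91, 8.19 and 7.72 at D4PM, 7.72 and 7.83 at D2PM and 6.70 and 6.59 in old cells. Unlike most of the 10 genes it differed little between the old arrays, and its changes were 1.29 at D4PM and 1.13 at D2PM (limma adjusted p = 0.000187 and 0.00132). The ETS factors Erg and Fli1 changed by 0.74 and 0.88 at D4PM (limma adjusted p = 0.0197 and 0.0131) and by 0.49 and 0.35 between the days, where neither passed. Without old replicate 2 the median change of the 13 at D4PM was 0.23, against 0.41 with both old arrays, and fewer were called, as over all genes.

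In the pathways that act through the receptors, 13 genes were tested and 5 were higher and 1 lower at D4PM. Over all genes tested 12.4% rose and 15.5% fell at D4PM. Vegfa, the ligand of Kdr and Flt1, changed by 0.07 at D4PM (limma adjusted p = 0.723), and Pgf, a ligand of Flt1 and not of Kdr, by 0.90 (limma adjusted p = 0.00252). Along the endoglin pathway, Acvrl1, the receptor that partners endoglin, changed by 0.55, Smad7, a feedback inhibitor, by 0.87 and Id1, a target of BMP signalling in many cells, by 1.67 (limma adjusted p of 0.00652, 0.000784 and 0.000396), while Bmpr2 fell by 0.66 (limma adjusted p = 0.00558). Of 10 junction partners tested 3 were higher at D4PM, where 12.4% of all genes rose. These were Jam2 (1.26), F11r (0.85) and Cldn12 (0.75). Without old replicate 2 the median change at D4PM was 0.18 for the 13 pathway genes, against 0.24 with both old arrays. For the 10 junction partners it was 0.21 against 0.28. Fewer genes of both lists were then called, as over all genes.

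The profile of the 10 genes over the 7 arrays, each gene centred on its own mean, was set against that of every other gene tested. The nearest was Egfl7, a secreted protein of endothelial cells, at a root mean square distance of 0.05 log2 units from the mean of the 10. Next came C1qtnf9, Ceacam1, Cd93, Fli1, Mettl7a1, Car8, Rasgrp3, Gbp9 and Myf6, at distances up to 0.12. Of these 10, Egfl7, Cd93 and Fli1 were on the endothelial lists, and Myf6 is a myogenic transcription factor of muscle fibres. The 10 marker genes themselves lay between 0.15 (Flt1) and 0.48 (Emcn) from their mean, and 3319 other genes tested lay within the larger of those distances.

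Markers of other cells were read on the same arrays. Of 13 satellite cell genes tested 3 were higher and 4 lower at D4PM against old cells, and 2 were higher and 2 lower at D2PM. Over all genes tested 12.4% were higher and 15.5% lower at D4PM, and 10.3% higher and 9.11% lower at D2PM. Their mean level lay between 9.81 and 10.03 on all 7 arrays, an average over genes that moved in opposite directions. Pax7, the defining factor of these cells, stood at 10.52, 10.30 and 10.47 at D4PM, 10.17 and 10.43 at D2PM and 10.26 and 9.87 in old cells. Neither Pax7 nor Myf5 passed in any comparison in the fit of all 7 arrays. For Pax7 at D4PM that outcome depended on old replicate 1. At D4PM the higher genes were Heyl (0.79), Spry1 (0.63) and Calcr (0.51). The lower ones were Myod1 (-1.35), Msc (-0.94), Vcam1 (-0.81) and Itga7 (-0.44), with limma adjusted p-values over the 7 genes between 0.000365 and 0.0260. Myod1, the myogenic determination factor, stood at 9.60, 9.91 and 9.25 at D4PM, 9.75 and 9.91 at D2PM and 10.90 and 10.97 in old cells, without overlap between post-mortem and old arrays. Without old replicate 2 the median change of the 13 genes was -0.13 at D4PM and -0.15 at D2PM, against -0.10 and -0.18 with both old arrays. Fewer of them were then called on each day.

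Lists of muscle fibre and of tendon and Schwann cell genes were also higher post mortem. Over all genes tested 12.4% were higher at D4PM and 10.3% at D2PM. Of 8 fibre genes tested 7 were higher at D4PM and 7 at D2PM, and Acta1, the actin of skeletal muscle fibres, changed by 1.99 and 1.77. The mean level of the 9 fibre genes measured was 7.94 to 8.20 at D4PM, 7.91 and 8.05 at D2PM and 7.19 and 6.88 in old cells. Of 7 tendon and Schwann cell genes tested 3 were higher on each day, with Fmod, a proteoglycan of tendon, at 1.5 and 1.51. Without old replicate 2 the median change at D4PM was 0.82 for fibre genes, against 1.08 with both old arrays. For tendon and Schwann cell genes it was 0.49 against 0.76. Fewer genes of both lists were then called, as over all genes.

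In the remaining lists few genes passed. The shares over all genes tested were 12.4% higher and 15.5% lower at D4PM, and 10.3% and 9.11% at D2PM. Of 9 pericyte and smooth muscle genes tested none passed in any comparison in the fit of all 7 arrays, with a median change of 0.28 at D4PM. For some of them, Rgs5 and Acta2 included, that outcome depended on a single array. Rgs5, a pericyte marker, was at 7.93 on old replicate 2 against 8.74 to 9.58 on the other arrays. Of the 10 measured only 4 were lowest on old replicate 2. Acta2, the gene with the highest mean level, was lowest on old replicate 1 (9.76, against 10.38 on old replicate 2). Of 9 genes of fibroadipogenic progenitors none passed at D4PM and 1 at D2PM, Lum (0.89, limma adjusted p = 0.0294), and the mean level of the 10 measured was highest on the D2PM arrays (7.36 and 7.34). Dcn, a matrix proteoglycan of these cells, stood at 10.39, 9.98 and 9.43 at D4PM, 10.19 and 10.20 at D2PM and 9.97 and 7.94 in old cells, with old replicate 2 the lowest. That Dcn passed on neither day depended on old replicate 1. Of the 10 measured only 4 were lowest on old replicate 2. Dpt, the gene with the highest mean level, was lowest on D4PM replicate 2 (11.60, against 11.84 on old replicate 2). Of 6 macrophage and monocyte genes tested 1 passed on both days, Cd14, at -1.04 at D4PM and -1.01 at D2PM (limma adjusted p = 0.00510 and 0.0141), with all post-mortem arrays below both old arrays. Ptprc, the pan-leukocyte gene, lay below the filter at 3.89 to 4.34 on all arrays. None of 6 lymphocyte genes measured reached the filter. Of 4 platelet and erythroid genes tested Alas2, of haem synthesis in red cells, was higher at D4PM (0.97) and D2PM (1.07), with all post-mortem arrays above both old arrays, and Pf4, a platelet chemokine, was lower at D4PM (-0.80). At D4PM Cd14 was not called without old replicate 1, Alas2 not without old replicate 2, and Pf4 stayed called only without old replicate 2 or D4PM replicate 2. At D2PM Lum was not called when either old or either D2PM array was left out, and of the D2PM calls Cd14 was lost without old replicate 1 or either D2PM array and Alas2 without old replicate 2 or D2PM replicate 2. The part of these other cells in the levels of the 10 endothelial genes was not tested.

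**Figure D4:**
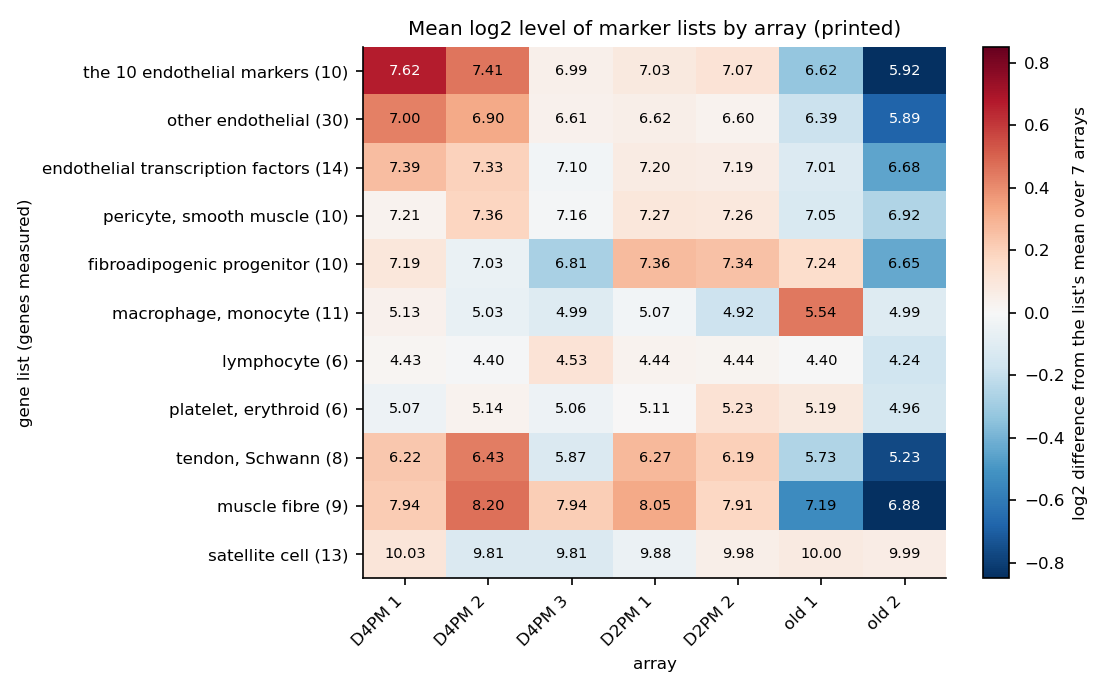
Mean RMA log2 level of 11 marker lists (rows, with the number of genes measured) on each array (columns), printed in each cell and coloured by its difference from the list's mean over the 7 arrays. The 10 endothelial markers run from 7.62 on D4PM replicate 1 to 5.92 on old replicate 2, and the satellite cell list stays between 9.81 and 10.03.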

How the data were processed

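The authors hybridised RNA amplified with the Ovation Pico V2 kit to GeneChip Mouse Gene 1.0 ST arrays and deposited log2 values made by RMA, with probes that appeared not expressed or invariant removed at thresholds not given in the sources used here. Besides RMA, limma appears in the processing notes of the submitters. The array annotation paired 14480 of 18675 probe sets with 1 gene, 774 with several and 3421 with none, and 14425 of the first kind matched a RefSeq gene of GRCm38.p6 through Entrez identifiers, with 0 symbols changed. For each gene the probe set with the highest mean was kept, and 9944 genes whose mean reached the 25th percentile (5.12) entered limma 3.58.1 under R 4.3.3 (1 fit of 7 arrays with a mean for each of 3 groups, 4 residual degrees of freedom, empirical Bayes moderation, Benjamini-Hochberg adjusted p under 0.05). The fit was also run on data simulated with independent noise in each gene. Those data hold no shifts of single arrays shared by many genes, so they do not test for such shifts. The number of arrays limits the precision. Alternative settings and each array left out in turn are given in the closing section.

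Genes named are the 10 markers, the 10 nearest in profile, and in each endothelial list up to 4 with the largest moderated statistic between the days and against old cells. In other lists they come from the 3 brightest, with Pax7, Myf5, Myod1 and Calcr. Not all genes that these rules select in the lists are named, and no rule fixed the choice among them. Cav1, Vegfa, Ptprc, Pf4, Lum, Heyl, Spry1, Msc, Vcam1 and Itga7 were named after their values were seen. Members, lists and tests were chosen with earlier results of these data known.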

Additional observations from a re-analysis of the deposited data

How the results depend on the processing

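The settings changed 1 at a time were the scaling (a further quantile step or centring on medians) and the filter (none or the 50th percentile). Others were averaging probe sets, a trended and robust prior, only the groups compared in the fit, the replicate number as a block, and each array left out. A plain Student's t-test was also run, although the paper names the moderated test of limma for its arrays. The post-mortem arrays as 1 group were added after the data were seen. All changes of the 10 genes kept their direction, except between the days Tek (-0.012) and Eng (-0.093) without D4PM replicate 1, in ranges of -0.012 to 0.34 and -0.093 to 0.28 over the arrays left out. Against old cells the genes of the 10 called numbered 8 at D4PM, 4 at D2PM and 7 for the mean of both days. They numbered 5, 2 and 5 with the trended and robust prior and 0, 0 and 1 with the plain Student's t-test. With only the groups compared they numbered 7 at D4PM and 2 at D2PM, and with the post-mortem arrays as 1 group 8. Leaving out 1 array gave 3 to 9, 0 to 5 and 1 to 9; at D2PM the 0 came without old replicate 2 or either D2PM array, and for the mean of both days 4 came without either D2PM array. Over all genes the plain Student's t-test called 14 at D4PM (2770 in the limma fit), 15 at D2PM (1931) and 1719 for both days (2887). Between the days it called 0 (19 in the limma fit), and 2 passed with only the groups compared. Leaving out 1 array gave 913 to 2519, 326 to 2061, 851 to 2816 and 0 to 18. The cause was not tested. Adding replicate number to the fit as a block, 54 genes were called between the days, none of them among the 10, and against old cells 9, 6 and 9 of the 10. Deviations of arrays with the same number correlated at -0.080 to 0.051, so the numbers were not taken to pair arrays. The median over all genes moved by less than 0.1 log2 under either scaling.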
